A study of Mus musculus with 2 samples.

Results

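A set of 10 genes of lipid mediator signalling was followed in regulatory T (Treg) cells of mice lacking miR-125a: the prostanoid receptors Ptger2, Ptger4, Ptgir and Ptgdr2, the prostanoid enzymes Hpgds and Ptgs2, the leukotriene genes Alox5ap and Ltb4r1, and the sphingosine-1-phosphate (S1P) receptors S1pr1 and S1pr4. The members were chosen by gene symbol. They were the 12 probe sets whose platform annotation names 1 of these 10 genes, out of 34945 probe sets that name 1 gene and stand for 18193 genes. Ptger4 and Ptgs2 had 2 probe sets each and the 8 other members 1 each. The groups were CD4+CD25hi Treg cells of miR-125a KO mice and of their WT littermates, all from the spleen at 6 to 8 weeks of age. Per the labels, RNA of different mice of a genotype was pooled in equal amounts, and each pool was hybridised to 1 Affymetrix Mouse Genome 430 2.0 array. How many mice went into a pool, and how the deletion was made, are not given in the sources used. With 1 array per genotype there was no replicate, so no difference below has a test or a p-value.

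Prostanoids, leukotrienes and S1P are lipids that cells make from membrane lipids and release to act on neighbouring cells through G protein-coupled receptors. Prostaglandin E2 and prostacyclin raise cyclic AMP in T cells, which restrains their activation, whereas prostaglandin D2 and leukotriene B4 attract type 2 and effector T cells. S1P in blood and lymph draws T cells out of lymphoid organs.

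miR-125a is a microRNA, which pairs with messenger RNAs mainly through its seed, bases 2 to 8. The mature arms that the KO mice lack, and miR-125b-5p, which shares the seed of the 5p arm and which the labels do not describe as deleted, are shown with the seed in capitals. The sequences are those of RefSeq on GRCm38.p6, with miR-125a on the plus strand at chr17:17830817-17830840 for the 5p arm and chr17:17830855-17830876 for the 3p arm.
mmu-miR-125a-5p: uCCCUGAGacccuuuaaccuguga
mmu-miR-125a-3p: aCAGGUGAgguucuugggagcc
mmu-miR-125b-5p: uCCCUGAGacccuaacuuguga
In the RefSeq table, 5 mature mouse microRNAs carried this 5p seed. Matches to the seed in the members' transcripts were not analysed here.

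The signal printed for a probe set is its MAS5 value, an array summary that subtracts mismatch signal, turned back from the deposited log2 scale. The log2 ratio is that of the miR-125a KO signal over the WT signal after 16.3 was added to both, and every fold is on that scale. Signals whose mean over both arrays was below 62.3, the median over probe sets, were counted as under the signal minimum and got no ratio. The "probe-set SD" beside a ratio is the spread between 2 probe sets of the same gene at that signal, over 5037 genes. It is not the spread between mice. The arrays had median signals of 62.4 in the miR-125a KO pool and 64.1 in the WT pool. The T cell and Treg markers were present in both pools, with Cd3d at 19862 in the miR-125a KO pool and 19986 in the WT pool. Foxp3, which defines Treg cells, stood at 694 in the miR-125a KO pool and 1631 in the WT pool, so the identity factor itself differed by 2.32-fold. Levels in a bulk pool cannot tell fewer cells of a type from less RNA per cell.

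Of the 8 member probe sets past the signal minimum, 0 differed by 2-fold and 0 by 1.5-fold between the pools. Over all 19248 probe sets naming 1 gene past the minimum, 2.43% differed by at least 2-fold and 11.9% by at least 1.5-fold, so a count of 0 among 8 is near the background. The 8 log2 ratios ran from -0.33 for S1pr4 to 0.27 for Ptgir, a range that held 62.9% of all these probe sets. The median of the 8 was -0.11, beside -0.02 over all probe sets. The 8 probe sets belonged to 7 members, and the 3 others, Ptgdr2, Hpgds and Ptgs2, were under the minimum in both pools. S1pr4 was the 1 probe set of the 8 whose ratio was larger than its probe-set SD, and 0 exceeded 2 such SDs. The share of all probe sets beyond their SD is not given here, so this count does not set S1pr4 apart.

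**Figure D1:**
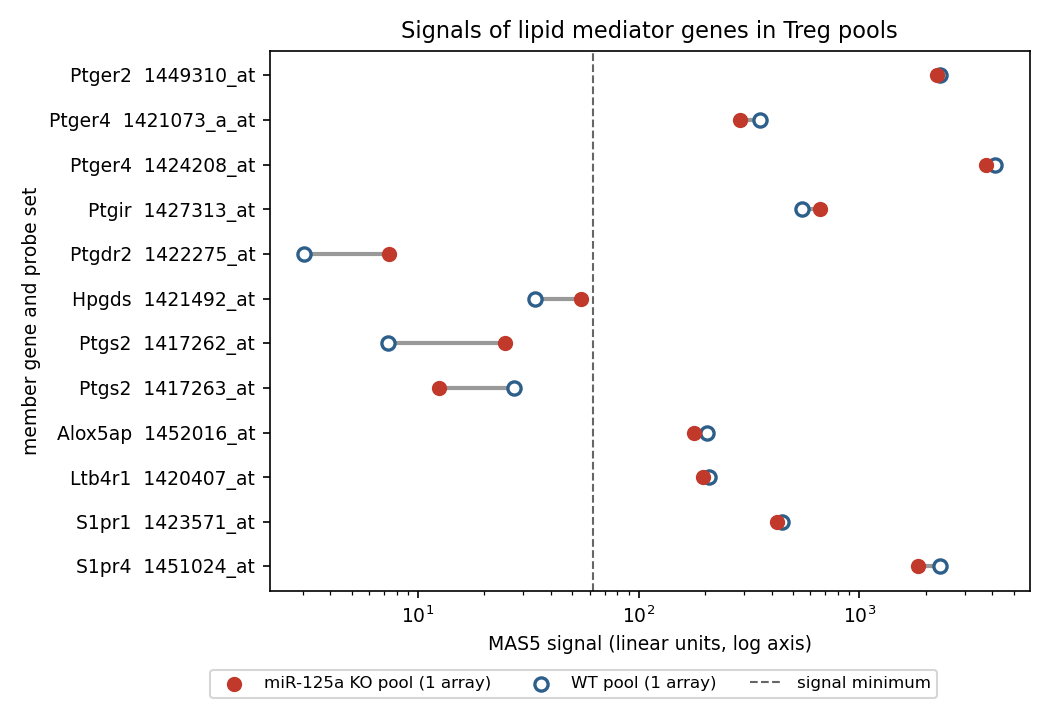
Signals of the 12 member probe sets on a log axis, with filled points for the miR-125a KO pool, open points for the WT pool (1 array each) and a dashed line at the signal minimum of 62.3. The 8 probe sets right of the line have points that nearly coincide, and the 4 left of it, of Ptgdr2, Hpgds and Ptgs2, lie apart at low signal.

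Ptger2 and Ptger4 encode EP2 and EP4, the prostaglandin E2 receptors that raise cyclic AMP. Ptger2 had a signal of 2244 in the miR-125a KO pool and 2331 in the WT pool, a log2 ratio of -0.05 with a probe-set SD of 0.21. The brighter probe set of Ptger4 had 3765 in the miR-125a KO pool and 4127 in the WT pool, with a log2 ratio of -0.13 and a probe-set SD of 0.19. Its other probe set, which can match several transcripts of the gene, had 288 in the miR-125a KO pool and 355 in the WT pool, a log2 ratio of -0.29 with a probe-set SD of 0.32. Both Ptger4 probe sets were slightly lower in the miR-125a KO pool, each by less than its probe-set SD.

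Ptgir encodes the prostacyclin receptor, which also raises cyclic AMP. It was the 1 member past the minimum with the higher signal in the miR-125a KO pool, at 664 against 547 in the WT pool. The other 7 member probe sets past the minimum were below 0. Over all probe sets past it, 47.5% had a ratio above 0 and 52.5% below, and the members' split was not tested. The Ptgir log2 ratio of 0.27, a 1.21-fold difference, was as large as its probe-set SD of 0.27. Platelet and megakaryocyte genes, which were measured beside it because prostacyclin also acts on platelets, had a summed signal of 3196 in the miR-125a KO pool and 2625 in the WT pool over 7 of 7 genes past the minimum. Most of that sum was Pf4, at 1744 in the miR-125a KO pool and 1226 in the WT pool, and Ppbp, at 652 in the miR-125a KO pool and 501 in the WT pool. The list did not move one way, with 4 genes above 0 and 3 below, of which Itga2b had -0.43, Gp5 -0.20 and Treml1 -0.57. The part of such cells in the Ptgir value was not tested.

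Ptgdr2 encodes CRTH2 (DP2), the prostaglandin D2 receptor that guides type 2 helper T (Th2) cells, eosinophils and basophils. Its signal was 7.41 in the miR-125a KO pool and 3.06 in the WT pool, both far under the minimum. Hpgds, the hematopoietic synthase that makes prostaglandin D2, had 54.6 in the miR-125a KO pool and 34.0 in the WT pool. Hpgds was the member nearest to the minimum from below. Neither value gives a fold, because both signals of each gene lay under the minimum.

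Of the type 2 helper genes listed beside this pair, 11 were past the minimum, 5 of them higher by 2-fold or more in the miR-125a KO pool and 0 lower by as much. Of the 11 ratios, 8 lay above the range of the members and 3 inside it. Over all 10590 genes past the minimum, 1.08% were higher and 1.2% lower by at least 2-fold, together 2.28%. The list's median log2 ratio was 0.87, beside 0.0071 over all these genes. Il5, the eosinophil growth factor, had 860 in the miR-125a KO pool and 88.6 in the WT pool, and Il9, Il13 and Il4 had log2 ratios of 3.44, 2.44 and 2.35. Gata3, which directs Th2 differentiation, had 2016 in the miR-125a KO pool and 756 in the WT pool. The list was chosen with these values known, so its direction is not independent evidence. Pparg, a nuclear receptor for lipids that Th2 cells also use, had 153 in the miR-125a KO pool and 76.1 in the WT pool, with a log2 ratio of 0.87 and a probe-set SD of 0.38. Ccr8, a receptor for the chemokine CCL1, had 623 in the miR-125a KO pool and 467 in the WT pool. Crlf2, a receptor chain for the cytokine TSLP, and Ccr4, a chemokine receptor, had the lowest ratios of the list, -0.30 and -0.04, and that of Ccr4 lay above 0 under each of 3 other array scalings. Ccr3, the eotaxin receptor, was under the minimum in both pools, at 2.65 in miR-125a KO and 2.54 in WT. Ptgdr2 stayed under the signal minimum in a pool whose Th2 cytokine signals were 5.08-fold higher or more.

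Ptgs2 encodes cyclooxygenase-2, the inducible enzyme that starts prostanoid synthesis. Its first probe set had 24.7 in the miR-125a KO pool and 7.29 in the WT pool, and its second had 12.4 in the miR-125a KO pool and 27.3 in the WT pool. The 2 probe sets of this gene thus went opposite ways at signals under the minimum, and no ratio is given for either.

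Among the other genes of prostanoid biology none past the minimum reached 2-fold. Of the 5 other prostanoid receptors named on the array, 2 were past the minimum. Ptger3, the EP3 receptor, had a log2 ratio of 0.09, and Tbxa2r, the thromboxane receptor, had -0.19, with 533 in the miR-125a KO pool and 611 in the WT pool. In the list of synthesis, transport and breakdown, 8 of 14 genes other than Hpgds and Ptgs2 were past the minimum, 7 of them with a ratio above 0, and the median was 0.24. Over all 10590 genes past the minimum, 51.0% had a ratio above 0 and the median was 0.0071. The list's median ran from 0.06 to 0.33 over the processing alternatives. Tbxas1, thromboxane synthase, had the highest ratio, 0.50, at 143 in the miR-125a KO pool and 96.4 in the WT pool. Abcc4, a transporter that exports prostanoids, had 0.49, at 553 in the miR-125a KO pool and 390 in the WT pool. Tbxas1 is made by platelets and macrophages. The median log2 ratio was 0.37 for 7 platelet genes, 4 above 0 and 3 below, and -0.59 for 3 macrophage, monocyte and dendritic cell genes, all below 0, and their part in the Tbxas1 value was not tested. Pla2g6, a phospholipase, and Ptgr2, a prostaglandin reductase, had the lowest ratios, 0.04 and -0.08, although the second probe set of Pla2g6 past the minimum had 0.58 and the 5 probe sets of Ptgr2 past the minimum ran from -0.42 to 0.38.

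**Figure D2:**
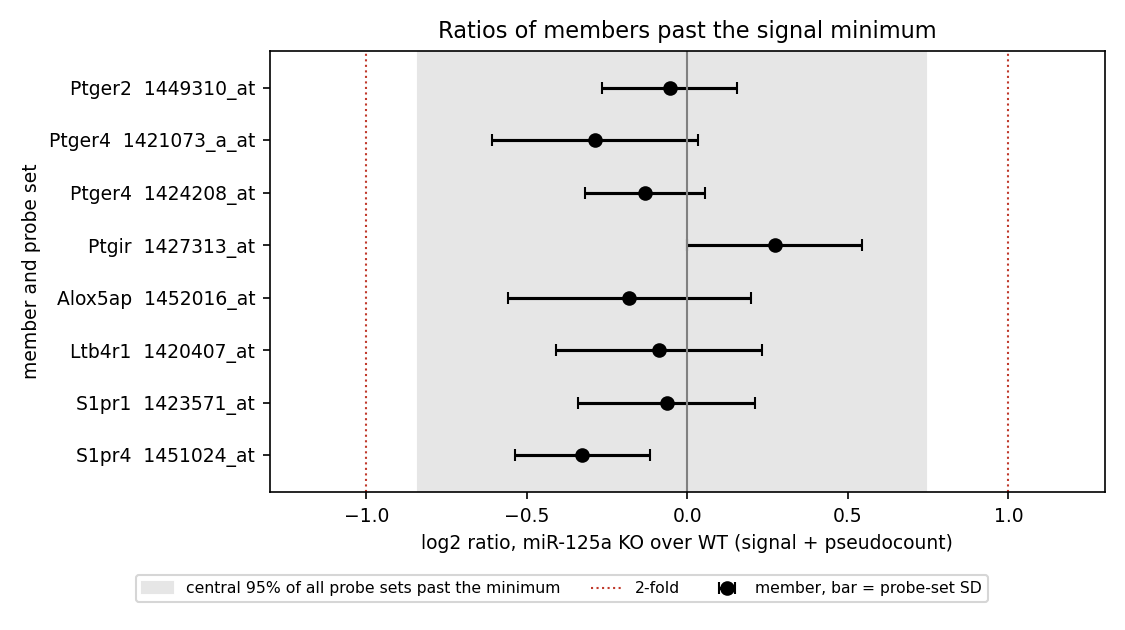
Log2 ratios (miR-125a KO over WT) of the 8 member probe sets past the signal minimum, with bars for the probe-set SD, a grey band for the central 95% of all probe sets past the minimum (-0.84 to 0.74) and dotted lines at 2-fold. All 8 points lie inside the band, between -0.33 for S1pr4 and 0.27 for Ptgir.

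Alox5ap encodes FLAP, the protein that hands arachidonic acid to the lipoxygenase Alox5 for leukotriene synthesis. Its signal was 178 in the miR-125a KO pool and 204 in the WT pool, with a log2 ratio of -0.18 and a probe-set SD of 0.38. Ltb4r1 encodes BLT1, the high-affinity leukotriene B4 receptor that recruits effector T cells and myeloid cells. It had 195 in the miR-125a KO pool and 208 in the WT pool, with a log2 ratio of -0.09 and a probe-set SD of 0.32. Both genes were within their probe-set SD. Both are also expressed by myeloid cells, whose 11 marker genes named on the array summed to 489 in the miR-125a KO pool and 606 in the WT pool. Of these, 3 were past the minimum. Csf1r had 126 in the miR-125a KO pool and 159 in the WT pool, and Cd68 had 87.4 and 166. Itgax had 47.6 in the miR-125a KO pool, under the minimum, and 79.7 in the WT pool. The other 8, Cd14, Itgam and Adgre1 among them, were under the minimum in both pools and did not go one way. Lyz2 had 61.0 in the miR-125a KO pool and 30.8 in the WT pool, and Adgre1 had 36.8 and 44.7. The part of such cells in the Alox5ap and Ltb4r1 values was not tested.

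Among the other leukotriene enzymes, 5 of 10 genes named on the array were past the minimum, and 0 of them reached 2-fold. Alox5 itself had 101 in the miR-125a KO pool and 65.4 in the WT pool, a log2 ratio of 0.52 with a probe-set SD of 0.38, and Ggt5, which trims leukotriene C4, had 0.19. Mgst2, which can make leukotriene C4, had the lowest ratio, -0.40, at 2221 in the miR-125a KO pool and 2942 in the WT pool, and Mgst3, of the same family, had -0.26. The fifth of these genes, Lta4h, which makes leukotriene B4, had 0.0061 on its brightest probe set, a ratio that was below 0 after quantile or loess scaling. Its other probe set past the minimum had -0.37, at 184 in the miR-125a KO pool and 243 in the WT pool, with a probe-set SD of 0.32. Ltc4s, the dedicated leukotriene C4 synthase, was at 8.29 in the miR-125a KO pool and 3.26 in the WT pool, under the minimum in both.

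Receptors for cysteinyl leukotrienes had larger ratios, in either direction, than Ltb4r1. Cysltr2 was 2.38-fold higher, at 1164 in the miR-125a KO pool against 479 in the WT pool, with a log2 ratio of 1.25 and a probe-set SD of 0.24. Cysltr1, the other cysteinyl leukotriene receptor, had 1377 in the miR-125a KO pool and 1891 in the WT pool, a log2 ratio of -0.45, and its second probe set had -0.31. Thus the Cysltr2 signal was the higher and both Cysltr1 signals the lower in the miR-125a KO pool. Cmklr1, the chemerin receptor, had 29.7 in the miR-125a KO pool and 108 in the WT pool. Its miR-125a KO signal was under the minimum and its mean passed only through the WT pool, so the computed log2 ratio of -1.43 gives no measured fold. Its second probe set was under the minimum in both pools, at 3.89 in miR-125a KO and 6.79 in WT. Beside Ltb4r1, 4 of 7 genes of this receptor list were past the minimum by their mean signal. Of these, 2 reached 2-fold, Cysltr2 and Cmklr1, beside 2.28% of all genes past it by the same rule. Cysltr2 was the 1 of them with both signals past the minimum. Cysltr2 rests on 1 probe set, which can match several transcripts of the gene. Over the 6 lists of lipid mediator genes, 52 of 81 genes named on the array were past the minimum, and none but Cysltr2 and Cmklr1 reached 2-fold.

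**Figure D3:**
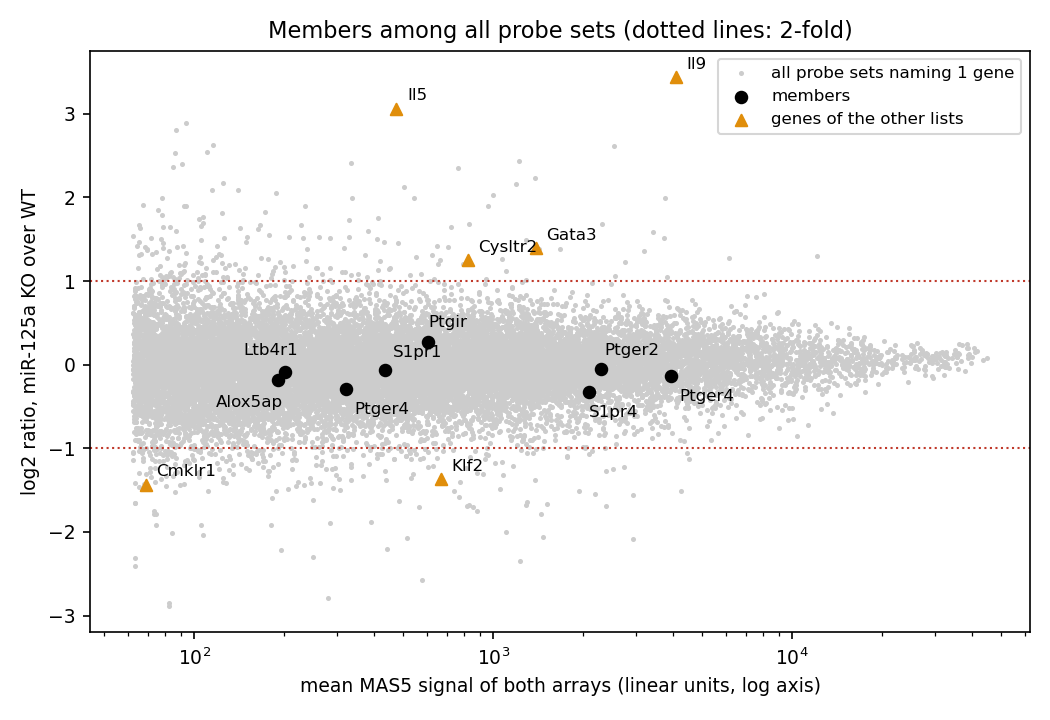
Log2 ratio (miR-125a KO over WT) against mean signal (log axis) for all probe sets naming 1 gene past the minimum (grey), the 8 member probe sets (black) and named genes of the other lists (triangles), with dotted lines at 2-fold. The members lie within the grey cloud, while Cysltr2 and Cmklr1 lie outside the 2-fold lines on opposite sides, at 1.25 and -1.43, the second with its miR-125a KO signal under the minimum.

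S1pr1 encodes the S1P receptor that lets T cells leave lymphoid organs. Its signal was 424 in the miR-125a KO pool and 444 in the WT pool, with a log2 ratio of -0.06 and a probe-set SD of 0.28. S1pr4 encodes an S1P receptor found mainly on blood cells. It was lower in the miR-125a KO pool, at 1850 against 2325 in the WT pool, with a log2 ratio of -0.33, a 1.25-fold difference, and a probe-set SD of 0.21. This was the largest ratio in size among the members past the minimum, and still under 1.5-fold. CD8 T, NK and B cells can also express S1pr4. Their marker lists had lower sums in the miR-125a KO pool, at 6375 against 9545 in the WT pool for 6 CD8 T and NK cell genes and 2119 against 3791 for 7 B cell genes. Most of each sum was 1 gene, Klrd1 at 5065 against 7919 and Ighm at 1754 against 3403. Past the minimum, 4 CD8 T and NK cell genes had ratios below 0 and 1, Klre1, had 0.58. All 3 B cell genes past it were below 0, although the Ighm probe sets past the minimum ran from -0.95 to 0.41. The part of these cells in the S1pr4 value was not tested.

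Klf2, the transcription factor that switches on S1pr1 in resting T cells, was 2.59-fold lower, at 366 in the miR-125a KO pool against 971 in the WT pool, with a log2 ratio of -1.37 and a probe-set SD of 0.24. The S1pr1 ratio was 0.06 below 0 on the log2 scale beside this. Cd69, whose protein removes S1PR1 from the cell surface, had 4562 in the miR-125a KO pool and 5092 in the WT pool, a log2 ratio of -0.16. Foxo1, which acts upstream of Klf2, had a log2 ratio of 0.26, and Arrb2, an arrestin, had 0.06. Klf2 was the 1 of 5 genes past the minimum in this list that reached 2-fold, and the list's median log2 ratio was -0.0048, which became 0.03 when the arrays were scaled to equal medians.

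Beside S1pr1 and S1pr4, 4 of the 8 other S1P and lysophosphatidic acid receptors named on the array were past the minimum, and 0 of them reached 2-fold, with a median log2 ratio of -0.25. Lpar6, a lysophosphatidic acid receptor, had the lowest ratio, -0.68, at 263 in the miR-125a KO pool and 430 in the WT pool, with a probe-set SD of 0.28. S1pr2, which opposes S1pr1 in migration, had 0.32 on its brighter probe set and -0.34 on its other, so no direction can be given for it. Of 22 genes of S1P and ceramide metabolism past the minimum, 0 reached 2-fold and the median was -0.11. Sphk1 and Sphk2 encode the kinases that make S1P. Sphk1 had a log2 ratio of 0.05, and Sphk2 had -0.23 on its brighter probe set and 0.27 on its other, so no direction can be given for it. Sgpl1, the lyase that destroys S1P, had -0.17. Cers4, a ceramide synthase, and Sptlc2, a subunit of the enzyme that starts sphingolipid synthesis, had the highest ratios by their brightest probe sets, 0.33 and 0.25. Their other probe sets past the minimum had 0.83 and -0.18 for Cers4 and 0.54 and -0.06 for Sptlc2, on both sides of 0. Acer3, a ceramidase, and Asah2, another ceramidase, had the lowest, -0.38 and -0.33, but the other probe set of Acer3 past the minimum had 0.59 and the miR-125a KO signal of Asah2, 60.1, was under the minimum.

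**Figure D4:**
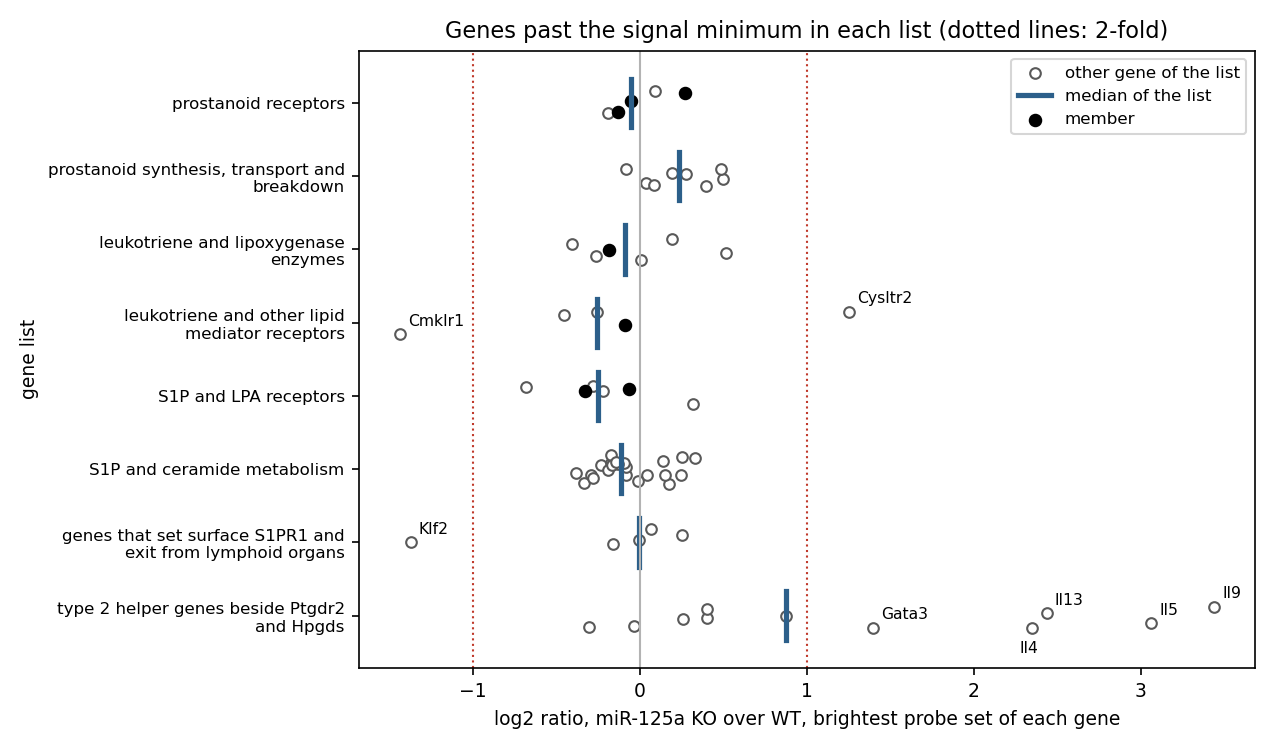
Log2 ratios (miR-125a KO over WT) of the genes past the signal minimum in 8 lists, each gene by its brightest probe set, with filled points for members, open points for other genes, a vertical bar for each list's median and dotted lines at 2-fold. Beside the type 2 helper genes, Cysltr2, Cmklr1 (with its miR-125a KO signal under the minimum) and Klf2 are the points outside 2-fold.

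Klf2 and Gata3, the transcription factors named above, bind CACCC and GATA motifs, and the members' promoters were searched for these letters. RefSeq promoters, from 250 bases before to 50 after the transcription start, were given for 8 of the 10 members on GRCm38.p6. None was given for S1pr1 or Alox5ap, so these were not searched. CACCC or its reverse complement GGGTG was found in 4 of the 8, those of Ltb4r1, Ptger4, Ptgir and S1pr4, beside 57.5% of all 32851 promoters in the table. The Ltb4r1 promoter held 5 matches, the most of the members. The GATA motif, taken as AGATAA with its first base A or T and its last base A or G, on either strand, was found in 1 of the 8, that of Ptger2, beside 29.8% of all promoters. No member promoter held both motifs, so no matches overlapped. The Ltb4r1 promoter (chr14:55765712-55766011, plus strand) and the Ptger2 promoter (chr14:44987861-44988160, plus strand) are shown because they hold the most CACCC matches and the GATA match, in capitals.
Ltb4r1: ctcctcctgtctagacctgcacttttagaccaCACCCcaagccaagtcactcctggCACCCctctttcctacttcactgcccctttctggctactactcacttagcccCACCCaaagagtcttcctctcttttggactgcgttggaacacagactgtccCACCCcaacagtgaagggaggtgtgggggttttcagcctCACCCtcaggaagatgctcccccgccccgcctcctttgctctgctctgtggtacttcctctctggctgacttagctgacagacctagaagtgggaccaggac
Ptger2: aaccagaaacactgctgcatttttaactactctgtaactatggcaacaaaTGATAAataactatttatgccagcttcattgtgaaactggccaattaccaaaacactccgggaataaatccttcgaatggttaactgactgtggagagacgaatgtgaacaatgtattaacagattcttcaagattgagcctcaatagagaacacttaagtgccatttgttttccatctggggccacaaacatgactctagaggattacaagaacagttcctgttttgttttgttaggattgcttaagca
The log2 ratios of Ltb4r1 and Ptger2 were -0.09 and -0.05, beside -1.37 for Klf2 and 1.40 for Gata3. Of the other members with a CACCC match, Ptgir had 0.27, S1pr4 had -0.33 and the probe sets of Ptger4 had -0.13 and -0.29. Whether Klf2 or Gata3 acts on these genes was not tested. A match describes the letters of the window and is not evidence of binding.

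Markers of mast cells, basophils, eosinophils, neutrophils, endothelial and myeloid cells, which can make or sense these lipids, were mostly under the minimum. Other lists were brighter. Past the minimum were 7 of 7 platelet and megakaryocyte genes, 5 of 6 CD8 T and NK cell genes and 3 of 7 B cell genes. In the mast cell and basophil list, whose cells make prostaglandin D2 and cysteinyl leukotrienes, 4 of 12 genes were past the minimum, with a median log2 ratio of -0.26. All 12 genes summed to 935 in the miR-125a KO pool and 1300 in the WT pool. Kit, the stem cell factor receptor, was the 1 at 2-fold, at 285 in the miR-125a KO pool and 643 in the WT pool. Most of the difference between the sums was Kit. The others past the minimum did not go one way, with log2 ratios of -0.49 for Cpa3, -0.03 for Fcer1a and 0.44 for Gata2. Mcpt8 and Ms4a2 were under the minimum in both pools. No gene of the eosinophil list (3 named on the array) or the neutrophil list (8 named) was past the minimum, with summed signals of 68.6 in the miR-125a KO pool and 44.7 in the WT pool for eosinophils and 161 in the miR-125a KO pool and 308 in the WT pool for neutrophils. Of 5 endothelial genes, 1 was past the minimum, Pecam1, with a log2 ratio of -0.45, and the list summed to 515 in the miR-125a KO pool and 707 in the WT pool. The median log2 ratios were -0.14 over 3 B cell genes and -0.38 over 5 CD8 T and NK cell genes past the minimum. The T cell and Treg list had a median of -0.04 over 10 genes, with Foxp3 the 1 at 2-fold. No marker gene was at the lowest deposited value on both arrays.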

How the data were processed

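The authors deposited log2 values, 1 per probe set and array, for 45101 probe sets on 2 arrays. Per the submitters' processing notes the tool was MAS5, with its version not given there. Turned back to a linear scale, both arrays had the same mean, 500.0, after 2% was trimmed from each end. The lowest value, 0 on the log2 scale, is a bound. Genes were named from the platform annotation: 34945 probe sets named 1 gene, 932 several, 9160 none, and 64 were controls. Identifiers of 34741 were found in RefSeq on GRCm38.p6, and 0 symbols changed.

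The pseudocount of 16.3 was the 25th percentile of all signals, the minimum of 62.3 the median over probe sets that are not controls. The probe-set SD, the SD of the difference between a gene's 2 brightest probe sets past the minimum divided by the square root of 2, was taken in 10 signal groups and ran from 0.16 to 0.38. Lists were counted by each gene's brightest probe set. The number of arrays limits the precision. The computation was tested on simulated data (python 3.11.15, numpy 2.4.6, pandas 2.3.3, statsmodels 0.14.6).

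The members and lists were chosen with earlier results of these data known, and lists were written from general knowledge. Named genes were all members, every list gene at 2-fold, and up to 2 highest and 2 lowest of each list. Foxp3, Klf2, Cd69, Gata3 and the Th2 cytokines Il4, Il5, Il9 and Il13 were named too. Second probe sets, Lta4h, Ltc4s, Sphk1, Sphk2, Sgpl1, Pparg, Ccr8, Ccr3, Ptges, Pla2g4a, Slco2a1, Hpgd, Plpp3 and single markers were named after their values were seen.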

Additional observations from a re-analysis of the deposited data

How the results depend on the processing

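The alternatives were 3 array scalings (equal medians, quantile, loess at span 0.3), pseudocounts set to 1 or to the median signal of 63.1, no filter, a stricter filter (75th percentile of mean signals), no probe sets of several transcripts, folds of 1.5 or 3, and a gene's mean over its probe sets. The count of member probe sets at 2-fold was 0 in all of them where it was computed, and the ratios of the 8 member probe sets past the minimum kept their sign in the 5 scaling and pseudocount alternatives, from -0.33 to 0.32. The 200 probe sets higher and 268 lower by 2-fold over the whole array became 249 and 210 after loess, so the higher share moved from 42.7% to 54.2%. They were 95 and 109 with the larger pseudocount, 1491 and 1187 with no filter (55.7% higher), 45 and 77 with the stricter filter, 911 and 1377 at 1.5-fold, and 54 and 39 at 3-fold (58.1% higher). The count of 2 (Cysltr2 and Cmklr1) in the list of leukotriene and other lipid mediator receptors became 1 with the larger pseudocount, where Cmklr1 had -0.88, with the stricter filter, which drops Cmklr1, and without probe sets of several transcripts, which drops Cysltr2. With a pseudocount of 1 Cmklr1 had -1.83. With no filter Fpr2 of the same list, under the minimum in both pools, also reached 2-fold, at -1.02. With no filter, genes at 2-fold became 2 for prostanoid synthesis (from 0), 1 for S1P and ceramide metabolism (from 0), 3 for mast cells and basophils (from 1), 2 for B cells (from 0) and 1 for endothelial cells (from 0), and the macrophage, monocyte and dendritic cell median was -0.033, since more genes are counted. With the stricter filter the medians were 1.87 for type 2 helper genes, -1.13 for mast cells and basophils and -0.95 for B cells, over fewer genes. Without probe sets of several transcripts the type 2 helper median was 2.35, and the mast cell and T cell lists had 0 genes at 2-fold in place of 1. Of 814 values recomputed, 786 lay within the probe-set SD, or for counts within 1.5 times, of the reported value and 28 moved further. Of 651 recomputed ratios and medians, 16 had the opposite sign to the reported value, with recomputed values from -0.04 to 0.05, among them those of Lta4h and Ccr4 and the median of the list around S1PR1 and exit, and 0 were of a value at 2-fold. No paired analysis was possible because there was 1 array per genotype. Dim probe sets near the minimum set the limit here, since MAS5 ratios vary most there.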

Other observations

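Several lipid mediator genes under the signal minimum had unequal signals between the pools, given here as values with no ratio. Ptges, the inducible prostaglandin E synthase, had 73.6 in the miR-125a KO pool and 12.1 in the WT pool on its brightest probe set. Its other probe sets had 28.5 and 27.1 in the miR-125a KO pool, against 7.95 and 4.75 in the WT pool. All 3 Ptges probe sets were thus higher in the miR-125a KO pool, and 1 of the 6 signals exceeded the minimum of 62.3. Pla2g4a, the phospholipase that frees arachidonic acid, had 75.5 in the miR-125a KO pool and 42.0 in the WT pool. Slco2a1, a prostaglandin importer, had 8.11 in the miR-125a KO pool and 60.1 in the WT pool on its brightest probe set. Its other probe sets had 3.38, 30.9 and 11.3 in the miR-125a KO pool, against 32.4, 31.2 and 6.25 in the WT pool, and did not go one way. Hpgd, which inactivates prostaglandins, had 17.2 in the miR-125a KO pool and 3.84 in the WT pool on its brighter probe set. Plpp3, a phosphatase that degrades S1P outside the cell, had 52.5 in the miR-125a KO pool and 3.46 in the WT pool on its brighter probe set, and 8.29 in the miR-125a KO pool and 16.5 in the WT pool on its other. These genes were picked after their values were seen, and whether a repeat array would show the same order was not tested.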
